A study of Mus musculus with 12 samples.

Results

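The 10 genes described here are widely used markers of kidney injury and of the damaged tubule: Havcr1, Lcn2, Spp1, Clu, Timp1, Vcam1, Cdkn1a, Krt8, Krt18 and Vim. They were chosen by name, as the rows of the count tables that carry these 10 symbols, out of 15361 genes in the table of whole kidneys and 18145 genes in the table of F4/80+ cells. All 10 symbols had a row in both tables. All mice came from CRISPR-Cas9 editing and were homozygous for the Arg allele or for the Trp allele of a coding polymorphism in Sh2b3, the gene of the adaptor protein LNK, which restrains cytokine signalling. Every group, Arg/Arg as well as Trp/Trp, had received angiotensin II for 4 weeks, which raises blood pressure, so no library here comes from a kidney without angiotensin II. Polyadenylated RNA was sequenced from whole kidney homogenates (3 Arg/Arg and 3 Trp/Trp libraries) and from F4/80+ cells taken from other kidneys by a Percoll gradient and anti-F4/80 microbeads (3 Arg/Arg and 3 Trp/Trp libraries). The libraries were labelled as biological replicates. The labels used here gave no age, sex or strain, did not say whether animals were pooled, and did not say whether a kidney and an F4/80+ preparation came from the same mouse.

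Injured tubule cells, above all those of the proximal tubule, lose transport functions, shed or repair their brush border and switch on genes that healthy tubules express weakly. Some of the products are secreted or shed into urine and serve as markers of acute injury (Havcr1, Lcn2, Clu), others are matrix proteins, adhesion molecules and protease inhibitors that accompany inflammation and scarring (Spp1, Vcam1, Timp1), and others mark arrest of the cell cycle (Cdkn1a) or a remodelled cytoskeleton (Krt8, Krt18, Vim). None of the 10 is restricted to tubule cells: Vim and Timp1 are typical of fibroblasts, Vcam1 of activated endothelium, Krt8 and Krt18 of collecting duct and urothelium, and Spp1 of the thick ascending limb as well as of macrophages. In RNA from a mixture of cells, fewer cells of a type and less RNA per cell cannot be told apart.

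Levels are given as CPM, counts scaled to a common total, here the total of the counts that fell on nuclear protein-coding genes of the library's own table, so that mitochondrial and noncoding RNA do not set the scale. Total counts were 19.6 to 54.7 M per kidney library and 35.9 to 51.6 M per F4/80+ library, but mitochondrial genes held 7.86 to 9.35% of counts in kidney and 70.1 to 83.6% in F4/80+ cells. The nuclear protein-coding counts behind the CPM were therefore 17.8 to 50.0 M in kidney and 6.88 to 11.1 M in F4/80+ cells. The mitochondrial shares of kidney and F4/80+ cells rest on unlike sets of genes. Of 15361 kidney rows 15348 were nuclear protein-coding, against 13845 of 18145 F4/80+ rows. Their difference is therefore not one of like with like. The F4/80+ label was checked against macrophage markers, of which 12 of 15 had a row in that table and Aif1 was at 0 in at least 1 library. Adgre1, which encodes F4/80, ranged from 1.26 to 16.7 CPM in the F4/80+ libraries and from 4.11 to 8.32 CPM in whole kidney, and the summed markers ranged from 40.9 to 204 CPM and from 129 to 231 CPM. By the summed markers, on 12 genes against 15 in kidney, the preparations did not stand above the whole organ. In these preparations 20 proximal tubule markers summed to 22321 to 68803 CPM. The preparations are called F4/80+ preparations below.

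Promoter sequences were taken from RefSeq (GRCm38.p6, the patched form of the mm10 build) as the 250 bases before a start given there, and 8 of the 10 genes had an entry, 12 windows in all. Motifs of factors that act in injured tissue were searched on both strands: AP-1 (TGANTCA), STAT (TTCNNNGAA), the NF-kappaB site and the p53 half-site. Shown are Cdkn1a and Vim, the only ones of the 8 genes with a match, and Lcn2, which had the smallest p of the 10 genes between genotypes in F4/80+ preparations. The first Cdkn1a window (chr17:29090729-29090978, plus strand) holds 2 p53 half-sites, starting 73 and 51 bases before the RefSeq start and not overlapping each other. The Vim window (chr2:13574061-13574310, plus strand) holds an NF-kappaB site starting 223 bases before the RefSeq start, and the Lcn2 window (chr2:32387740-32387989, minus strand) holds none of the 4 motifs. For Vim and Lcn2 the RefSeq start lies downstream of the gene start in the deposited coordinates given with the values, so both windows fall inside the gene as the deposited table bounds it. Capitals mark the motifs, and each line reads from 5′ to 3′ along the gene's strand.
Cdkn1a: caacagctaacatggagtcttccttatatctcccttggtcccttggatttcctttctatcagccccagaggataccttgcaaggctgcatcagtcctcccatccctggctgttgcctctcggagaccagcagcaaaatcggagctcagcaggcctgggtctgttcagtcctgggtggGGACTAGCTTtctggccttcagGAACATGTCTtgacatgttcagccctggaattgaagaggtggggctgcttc
Vim: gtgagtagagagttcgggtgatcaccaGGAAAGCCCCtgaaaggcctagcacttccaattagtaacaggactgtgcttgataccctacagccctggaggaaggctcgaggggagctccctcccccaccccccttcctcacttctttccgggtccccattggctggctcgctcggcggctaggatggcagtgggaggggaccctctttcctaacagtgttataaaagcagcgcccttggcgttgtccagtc
Lcn2: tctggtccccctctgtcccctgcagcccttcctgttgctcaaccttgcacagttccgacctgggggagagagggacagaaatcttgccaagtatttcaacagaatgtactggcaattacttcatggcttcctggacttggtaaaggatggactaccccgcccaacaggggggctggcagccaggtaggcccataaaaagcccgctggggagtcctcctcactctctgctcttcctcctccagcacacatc
Of 32851 mouse promoter windows of the same length, 7.13% hold a p53 half-site, 3.9% an NF-kappaB site, 6.75% an AP-1 site and 7.02% a STAT site. A match describes these letters and is no evidence that a factor binds there. Vcam1 and Clu had no entry.

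Havcr1 (ENSMUSG00000040405.13, mm10 chr11:46735080-46779578, plus strand) encodes KIM-1, a receptor on injured proximal tubule cells that takes up apoptotic debris. In the order of replicates 1, 2 and 3, which is kept throughout, it stood at 1.18, 0.920 and 1.20 CPM in Arg/Arg kidneys and at 3.30, 1.56 and 1.12 CPM in Trp/Trp kidneys. Trp/Trp replicate 1 was well above the other 5 kidneys, and Trp/Trp replicate 3 lay within the Arg/Arg range. Havcr1 stood at 2.04, 3.79 and 0.978 CPM in Arg/Arg F4/80+ preparations and at 3.41, 2.11 and 0.525 CPM in Trp/Trp ones. The F4/80+ genotypes overlapped along their whole range, and all 12 values rest on 4 to 114 counts.

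Lcn2 (ENSMUSG00000026822.14, chr2:32384633-32388252, minus strand) encodes NGAL, a siderophore-binding protein that stressed distal tubules and neutrophils release. Arg/Arg kidneys gave 2.30, 2.54 and 3.38 CPM and Trp/Trp kidneys gave 6.27, 3.56 and 2.53 CPM. The genotypes overlapped in kidney, where Trp/Trp replicate 1 was again the highest and replicate 3 lay inside the Arg/Arg range. Lcn2 reached 8.87, 4.68 and 6.07 CPM in Arg/Arg F4/80+ preparations and 22.2, 17.9 and 9.98 CPM in Trp/Trp ones. Here the genotypes did not overlap, although the lowest Trp/Trp value was close to the highest Arg/Arg value. Neutrophils are the other well-known source of Lcn2. Of 13 neutrophil markers, 5 had a row in kidney, with a sum of 0.956 to 2.46 CPM, and S100a9 and Ltf were at 0 in at least 1 kidney. In F4/80+ preparations 1 of 13 had a row, with 0.0978 to 0.940 CPM. The part of neutrophils in the Lcn2 values was not tested.

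Spp1 (ENSMUSG00000029304.14, chr5:104435118-104441050, plus strand, overlapped on the same strand by Gm42793) encodes osteopontin, a secreted phosphoprotein that binds integrins and CD44. Its kidney levels were 804, 731 and 830.1 CPM in Arg/Arg and 899, 797 and 668 CPM in Trp/Trp. The 3 Trp/Trp kidneys enclosed the 3 Arg/Arg kidneys, with both the highest and the lowest value. In F4/80+ preparations Spp1 measured 2517, 1050.2 and 970.1 CPM in Arg/Arg and 2438, 2952 and 2457 CPM in Trp/Trp. Arg/Arg replicate 1 lay among the Trp/Trp preparations, and the other two Arg/Arg preparations were far below them.

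Clu (ENSMUSG00000022037.15, chr14:65968483-65981547, plus strand) encodes clusterin, a secreted chaperone. Its kidney levels varied little, at 305, 308 and 316 CPM in Arg/Arg and 353, 323 and 308 CPM in Trp/Trp. Trp/Trp replicate 1 was the highest and replicate 3 lay within the Arg/Arg range. Clu in F4/80+ preparations stood at 1347, 672 and 406 CPM in Arg/Arg and at 1670.5, 1445 and 1237 CPM in Trp/Trp. As for Spp1, Arg/Arg replicate 1 lay inside the Trp/Trp range and the other two were well below it.

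Timp1 (ENSMUSG00000001131.11, chrX:20870166-20874735, plus strand) encodes an inhibitor of matrix metalloproteinases and had few counts in every library. Kidney gave 13, 11 and 12 counts in Arg/Arg and 55, 14 and 9 counts in Trp/Trp, which is 0.415, 0.220 and 0.401 CPM against 1.59, 0.330 and 0.506 CPM. Without Trp/Trp replicate 1 the kidneys of both genotypes had like levels. F4/80+ preparations gave 6, 0 and 1 counts in Arg/Arg and 2, 6 and 7 counts in Trp/Trp, too few for the gene to pass the filter on low counts in that table. The count of 0 allows up to 0.379 CPM (3 counts, counting error only), so no difference was detectable at this depth. Timp1 lies inside Syn1 on the opposite strand, and since no source used here states that counting used strand, reads of the overlap cannot be told apart; Syn1 itself stood at 0.234 to 0.590 CPM in kidney and was not highest in Trp/Trp replicate 1.

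Vcam1 (ENSMUSG00000027962.14, chr3:116109949-116129688, minus strand, overlapped by the antisense gene Gm43109) encodes an adhesion molecule that binds leukocyte integrins. It was the only one of the 10 genes whose kidney levels did not overlap between genotypes, with 13.1, 11.9 and 12.6 CPM in Arg/Arg and 22.0, 14.7 and 15.6 CPM in Trp/Trp. Trp/Trp replicate 1 was the highest, but replicates 2 and 3 also lay above all Arg/Arg kidneys. Of 14451 nuclear protein-coding genes compared, 953 had all 3 Trp/Trp kidneys above the 3 Arg/Arg kidneys and 530 had them all below. Vcam1 spread far more in F4/80+ preparations, at 12.4, 3.29 and 3.33 CPM in Arg/Arg and 6.64, 29.7 and 11.03 CPM in Trp/Trp. These genotypes overlapped, with Trp/Trp replicate 2 alone at the top.

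Cdkn1a (ENSMUSG00000023067.14, chr17:29090976-29100727, plus strand, overlapped on the other strand by AC167363.2) encodes p21, the inhibitor of cyclin-dependent kinases induced by p53. Kidneys gave 33.1, 42.3 and 34.0 CPM in Arg/Arg and 33.5, 28.1 and 19.5 CPM in Trp/Trp. It was the only one of the 10 genes for which Trp/Trp replicate 1 was not the highest kidney: that library lay inside the Arg/Arg range and the other two Trp/Trp kidneys below it. In F4/80+ preparations the order was the opposite, with 68.3, 46.0 and 20.4 CPM in Arg/Arg and 78.6, 114 and 77.5 CPM in Trp/Trp. All 3 Trp/Trp preparations lay above all 3 Arg/Arg preparations.

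Krt8 (ENSMUSG00000049382.10, chr15:101996698-102004482, minus strand, overlapped on the other strand by Gm36026) and Krt18 (ENSMUSG00000023043.7, chr15:102028180-102032027, plus strand) encode the partner keratins of simple epithelia and lie 23.7 kb apart. Krt8 stood at 125, 121 and 128 CPM in Arg/Arg kidneys and at 139, 122 and 131 CPM in Trp/Trp kidneys. Krt18 stood at 28.8, 35.8 and 38.1 CPM in Arg/Arg kidneys and at 65.2, 33.7 and 33.2 CPM in Trp/Trp kidneys. Krt8 thus barely varied, while Krt18 was high in Trp/Trp replicate 1 and otherwise alike in both genotypes. The ratio of Krt18 to Krt8 CPM was 0.469 in that library and 0.231 to 0.297 in the other 5 kidneys. Krt8 in F4/80+ preparations was 221, 193 and 134 CPM in Arg/Arg and 231, 189 and 202 CPM in Trp/Trp. Krt18 was 145, 59.6 and 51.9 CPM in Arg/Arg preparations and 116, 122 and 145 CPM in Trp/Trp ones. Both keratins overlapped between the F4/80+ genotypes, with Krt18 low in Arg/Arg replicates 2 and 3, and their ratio ran from 0.309 to 0.719.

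Vim (ENSMUSG00000026728.9, chr2:13573927-13582826, plus strand) encodes vimentin, the intermediate filament of mesenchymal cells and of regenerating tubules. Its kidney levels were 47.4, 49.7 and 49.2 CPM in Arg/Arg and 115, 49.6 and 48.9 CPM in Trp/Trp. Of the 6 kidneys, 5 lay within a range of 47.4 to 49.7 CPM and Trp/Trp replicate 1 alone stood apart, at 2.35 times the mean of the other 5. F4/80+ preparations had 134, 73.4 and 47.6 CPM in Arg/Arg and 93.3, 187 and 156 CPM in Trp/Trp. Arg/Arg replicate 1 lay inside the Trp/Trp range, so these genotypes overlapped.

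**Figure D1:**
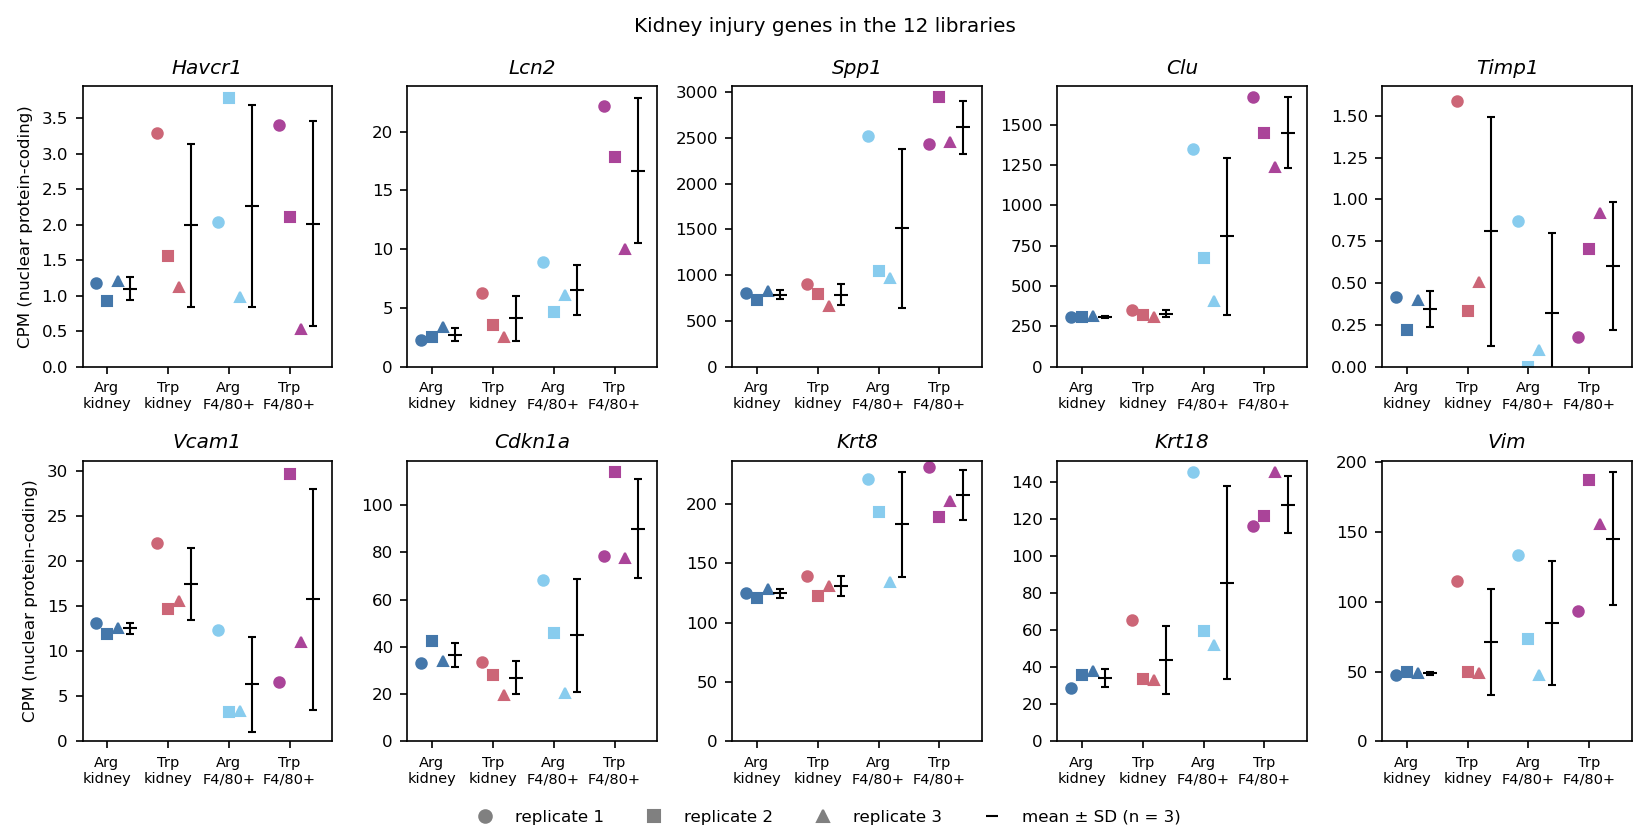
Level of each of the 10 genes in CPM (linear axis from 0) in the 4 groups; points are libraries, with the shape giving the replicate number, and bars are mean ± SD (n = 3; the bar of Timp1 in Arg/Arg F4/80+ is cut at 0). In kidney, replicate 1 of Trp/Trp (the second column of each panel) is the highest point for 9 of the 10 genes, all but Cdkn1a.

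Whole kidneys were compared between genotypes, 3 against 3 libraries, with the edgeR quasi-likelihood test across all 14464 genes that passed the filter on low counts. None of the 10 genes passed the test: 0 genes in all passed an adjusted p of 0.05 (0%), and DESeq2 called 15 genes (0.104%), none of them among the 10. At an unadjusted p under 0.05 there were 826 genes (5.71%), 3 of the 10 among them, namely Vcam1, Cdkn1a and Havcr1. In log2 units, Trp/Trp over Arg/Arg, Vcam1 was at 0.46 ± 0.14 (SE; edgeR quasi-likelihood test, Benjamini-Hochberg adjusted p = 0.843), Cdkn1a at -0.44 ± 0.16 (edgeR adjusted p = 0.843) and Havcr1 at 0.87 ± 0.37 (edgeR adjusted p = 0.843). Lcn2 was at 0.59 ± 0.30, Timp1 at 1.26 ± 0.60, Vim at 0.52 ± 0.27 and Krt18 at 0.34 ± 0.23. Among the abundant genes, Clu was at 0.06 ± 0.05, Krt8 at 0.05 ± 0.06 and Spp1 at -0.02 ± 0.09, all close to no difference. In all, 8 of the 10 were positive with a median of 0.40, against a median of 0.00 over all genes tested. The authors' deposited table gave an adjusted p in kidney for 7 of the 10, of which the smallest was 0.3715, for Vcam1. Vcam1 was 1 of 953 genes (6.59% of 14451) whose 3 Trp/Trp kidneys all lay above the 3 Arg/Arg kidneys.

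That median rested on 1 library. Trp/Trp replicate 1 was the highest of the 6 kidneys for 9 of the 10 genes, against 35.1% of the 14451 nuclear protein-coding genes compared. Relative to the mean of the other 5 kidneys it held 4.25 times as much Timp1, 2.75 times as much Havcr1, 2.35 times as much Vim, 2.19 times as much Lcn2, 1.92 times as much Krt18 and 1.62 times as much Vcam1. Spp1, Clu, Krt8 and Cdkn1a were at 1.07 to 1.17 times that mean. Without that library the median of the 10 fell to 0.03 and 7 were positive. Vim went to 0.01, Krt18 to -0.03, Lcn2 to 0.20, Timp1 to 0.24 and Havcr1 to 0.35. The genes of smallest p were then Cdkn1a, at -0.60 ± 0.15 (edgeR adjusted p = 0.949), and Vcam1, at 0.27 ± 0.10 (edgeR adjusted p = 0.952), which were both under 0.05 unadjusted, as were 4.95% of all genes, and did not pass. Other libraries moved Cdkn1a the opposite way, to -0.28 ± 0.12 without Trp/Trp replicate 3 and to -0.32 ± 0.17 without Arg/Arg replicate 2, and neither value had an unadjusted p under 0.05.

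**Figure D2:**
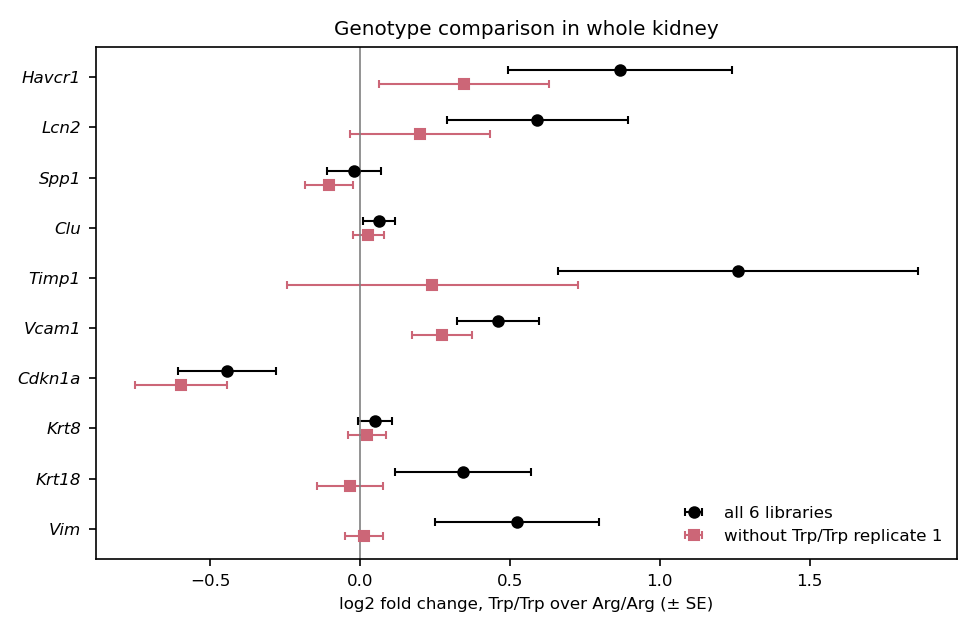
Log2 fold change of the 10 genes in whole kidney, Trp/Trp over Arg/Arg, from the edgeR fit with all 6 libraries (circles) and without Trp/Trp replicate 1 (squares), with bars of ± SE. Leaving that library out brings Vim from 0.52 to 0.01 and Krt18 from 0.34 to -0.03, while Cdkn1a moves away from 0, from -0.44 to -0.60.

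Other cell types' markers stood apart in the same library. The summed urothelium and papilla markers (11 of 12 with a row, none at 0) were at 229 CPM in Trp/Trp replicate 1 and at 53.3 to 74.0 CPM in the other 5 kidneys, with Upk1b, a urothelial plaque protein, at 35.2 CPM against at most 6.38 CPM. Fibroblast, pericyte and smooth muscle markers (15 of 15) summed to 1119 CPM against 519 to 562 CPM, and Dcn, the matrix proteoglycan decorin, was at 124 CPM against at most 43.2 CPM. Perirenal fat markers (8 of 8) summed to 290.3 CPM against 87.8 to 112 CPM, and B and plasma cell markers (7 of 9) to 251 CPM against 129 to 138 CPM. Podocyte and parietal epithelium markers (10 of 10) summed to 843 CPM against 602 to 682 CPM, and endothelial markers (14 of 14) to 993 CPM against 748 to 933 CPM. Markers of thick ascending limb, distal tubule and collecting duct (20 of 20) lay within the range of the other 5 kidneys, at 10679 CPM. Proximal tubule markers (20 of 20) were lowest in Trp/Trp replicate 1, at 39376 CPM against 42156 to 47287 CPM. Krt18, Vim and Timp1 are expressed by cells of these types, but the part of the marker lists in the levels of the 10 genes was not tested. Without Trp/Trp replicate 1 the log2 median of the urothelium list went from 1.26 to 0.01 and that of the fibroblast, pericyte and smooth muscle list from 0.38 to -0.06. Other lists stayed positive without it: macrophage markers went from 0.61 to 0.35 (14 of 14 tested positive, 6 with an unadjusted p under 0.05), T and NK cell markers from 1.04 to 0.79 (8 of 8) and fat markers from 1.70 to 0.56 (7 of 7), with 0 passing. Macrophage markers (15 of 15, none at 0) summed to 129 to 143 CPM in Arg/Arg kidneys and to 158 to 231 CPM in Trp/Trp kidneys, so that they did not overlap between genotypes, as was the case for Vcam1. Their part in the Vcam1 values was not tested.

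**Figure D3:**
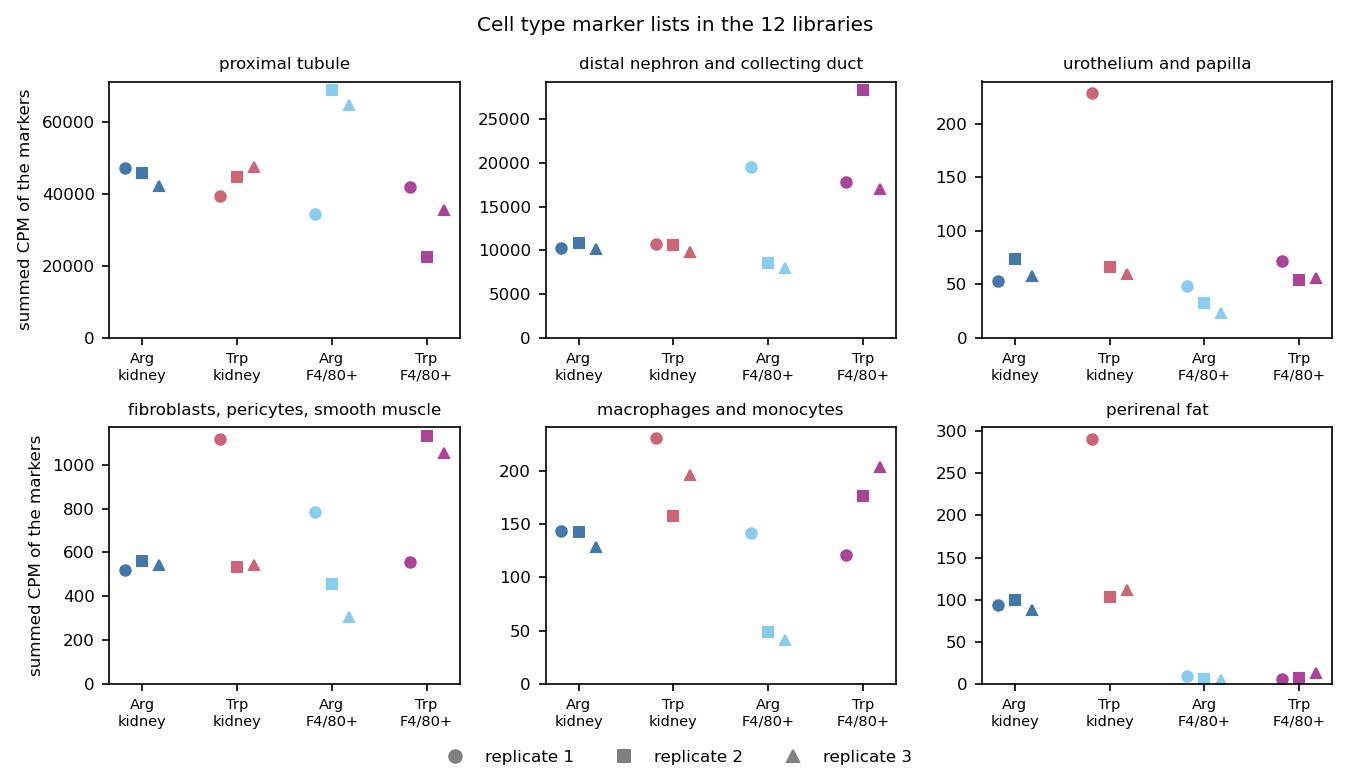
Summed CPM of 6 lists of cell type markers in the 12 libraries (linear axes from 0), with the shape giving the replicate number. Some lists rest on fewer genes in F4/80+ preparations: 2 against 11 in kidney for urothelium and papilla, and 1 against 8 for perirenal fat. The sums of such lists cannot be compared between sample types. In kidney, Trp/Trp replicate 1 is far above the others for urothelium and papilla (229 CPM), for fibroblasts, pericytes and smooth muscle (1119 CPM) and for perirenal fat (290.3 CPM), and the F4/80+ preparations differ widely from each other in tubule markers.

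Lists of related genes had medians of 0.05 to 0.14 in kidney with all 6 libraries, where the 10 genes had 0.40, and of -0.00022 to 0.057 without Trp/Trp replicate 1, where the 10 genes had 0.03. Of 48 other genes of tubule injury, dedifferentiation and failed repair, 47 were tested, 0 passed and 34 were positive, with a median of 0.14 (0.03 without Trp/Trp replicate 1). The smallest p among them were those of Ccl2, a monocyte chemokine, at 1.39 ± 0.41, the complement component C3, at 0.97 ± 0.36, and Krt19, a keratin of ducts, at 1.27 ± 0.47. Receptors, ligands and proteases that bind products of the 10 genes (23 tested) had a median of 0.10 (0.057 without that library), led by Cd44, the hyaluronan and osteopontin receptor, at 0.84 ± 0.32. For p53 targets and cell cycle partners of Cdkn1a (24 tested) the median was 0.05 (-0.00022 without that library) and 19 were positive, with the smallest p for Cdk6, at -0.21 ± 0.09. Intermediate filament and desmosome genes (20 tested) had a median of 0.12 (0.049 without that library), led by Des, the muscle filament desmin, at 0.38 ± 0.11. Acute phase genes and genes of STAT3 and NF-kappaB signalling (22 tested) had a median of 0.08 (0.026 without that library), led by Osmr, the oncostatin M receptor, at 0.47 ± 0.11. No gene of these 5 lists passed the edgeR test in kidney at an adjusted p of 0.05, and unadjusted p values under 0.05 were found for 7, 3, 1, 4 and 5 genes in that order.

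F4/80+ preparations were compared in the same way, 3 against 3 libraries, over 15225 genes. None of the 9 genes tested passed: 0 genes passed an adjusted p of 0.05 (0%), DESeq2 called 4 genes (0.0263%), none of the 10 among them, and 1224 genes (8.04%) had an unadjusted p under 0.05. Of the 9 genes, 5 were among those 1224: Lcn2, Cdkn1a, Vcam1, Clu and Spp1. Lcn2 was at 1.26 ± 0.35 (SE; edgeR quasi-likelihood test, Benjamini-Hochberg adjusted p = 0.605) and Cdkn1a at 0.90 ± 0.32 (edgeR adjusted p = 0.605). Vcam1 at 1.23 ± 0.55, Clu at 0.78 ± 0.35 and Spp1 at 0.71 ± 0.32 followed, each with an edgeR adjusted p of 0.616. Vim at 0.68 ± 0.32 and Krt18 at 0.51 ± 0.30 were higher in Trp/Trp by less, relative to their errors. Krt8 was at 0.07 ± 0.24, and Havcr1 was the only negative one at -0.26 ± 0.68, with an error too wide to give a direction. Of the 9, 8 were positive with a median of 0.71, against 0.01 over all genes tested. The authors' deposited table gave an adjusted p in F4/80+ cells for 6 of the 10, of which the smallest was 0.239, for Cdkn1a. Lcn2 and Cdkn1a were 2 of the 1007 genes (7.88% of 12777) with all 3 Trp/Trp preparations above all 3 Arg/Arg preparations.

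Arg/Arg replicate 1 held the highest Arg/Arg value for all 8 positive genes and for Timp1. Leaving it out raised the median of the 9 genes to 1.13 and left 7 with an unadjusted p under 0.05, against 2788 of all 15932 genes (17.5%), but 0 genes passed. Vcam1 then stood at 1.96 ± 0.54, Lcn2 at 1.40 ± 0.39, Clu at 1.19 ± 0.32, Cdkn1a at 1.18 ± 0.34 and Spp1 at 1.13 ± 0.27. Their edgeR adjusted p values lay between 0.0877 (Spp1) and 0.105 (Cdkn1a). Leaving out Trp/Trp replicate 2 instead took Vcam1 from 1.23 to 0.49 and left Lcn2 at 1.27. Leaving out Arg/Arg replicate 3 lowered most of the values: Clu went to 0.48, Cdkn1a to 0.57, Vim to 0.42 and Krt18 to 0.29, while Lcn2 stayed at 1.26. Of the 9 genes, 2 (Lcn2 and Cdkn1a) then had an unadjusted p under 0.05, against 2.31% of all genes. Over the 6 fits without 1 library, 2 to 7 of the 9 did. In other fits of all 6 libraries, 5 of the 9 did with DESeq2 and 3 with its scaling in edgeR (9.09 and 8.26% of all genes). With the replicate block 3 did (4.60%), with nuclear protein-coding genes alone 2 (8.55%), and with no filter 5 of 10 (8.20%).

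**Figure D4:**
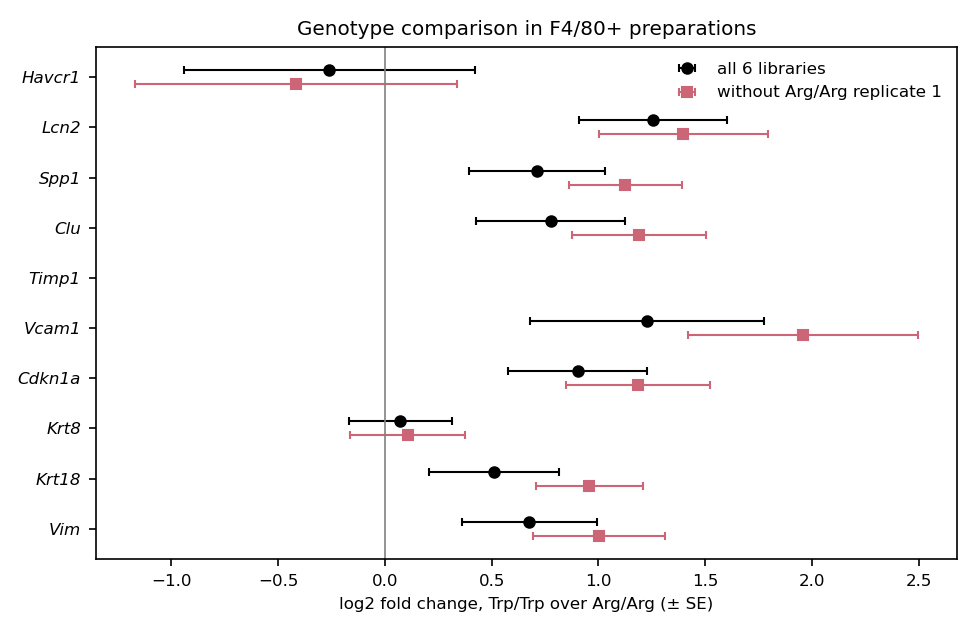
Log2 fold change of 9 of the 10 genes in F4/80+ preparations, Trp/Trp over Arg/Arg, from the edgeR fit with all 6 libraries (circles) and without Arg/Arg replicate 1 (squares), with bars of ± SE; Timp1 failed the filter on low counts. All but Havcr1 are above 0 in both fits, and Spp1 goes from 0.71 to 1.13 without that library.

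Tubule markers differed between these preparations in the same pattern. The 20 markers of thick ascending limb, distal tubule and collecting duct summed to 19469, 8513 and 8035 CPM in Arg/Arg and to 17776, 28264 and 17009 CPM in Trp/Trp, and the 20 proximal tubule markers to 34432, 68803 and 64588 CPM and to 41878, 22321 and 35591 CPM. Arg/Arg replicate 1 was thus within the Trp/Trp range for both lists, as it was for Spp1, Clu, Vim, Vcam1, Krt8, Havcr1 and Timp1. It lay below that range for Lcn2 and Cdkn1a and just above it for Krt18. All 20 distal markers were positive in Trp/Trp over Arg/Arg with a median of 0.68, and all 20 proximal markers were negative with a median of -0.91, although 0 of them passed. Macrophage markers summed to 142, 49.0 and 40.9 CPM in Arg/Arg and 121, 176 and 204 CPM in Trp/Trp, and fibroblast, pericyte and smooth muscle markers (13 of 15 with a row, Col1a1 and Tagln at 0 in at least 1 library) to 785, 455 and 306 CPM and to 558, 1130.0 and 1054 CPM. Mitochondrial shares of counts were 76.6 to 83.6% in Arg/Arg and 70.1 to 83.6% in Trp/Trp. The part of these lists in the values of the 10 genes was not tested.

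Among the related lists in F4/80+ preparations, 45 injury genes had a median of 0.56 with 36 positive and 0 passing, led by Krt7, a keratin of ducts, at 0.88 ± 0.29, the stress cytokine Gdf15 at 0.73 ± 0.25 and the transcription factor Sox4 at 0.86 ± 0.30. Intermediate filament and desmosome genes (15 tested, 14 positive) had a median of 0.43, led by Ppl, which encodes periplakin, at 0.86 ± 0.24. Acute phase and signalling genes (23 tested, 19 positive) had a median of 0.39. Their smallest p were those of the cytokines Tnf, at 3.06 ± 0.73, and Il1b, at 1.84 ± 0.49. Tnf was at 0 in at least 1 preparation, and how far its fitted value rests on low counts was not tested. Binding partners (21 tested) had a median of 0.24. For p53 targets and cell cycle partners of Cdkn1a (22 tested) the median was 0.10, led by Ccnd1, or cyclin D1, at 0.70 ± 0.22. No gene of these 5 lists passed the edgeR test in F4/80+ preparations, and 13, 3, 7, 3 and 2 had an unadjusted p under 0.05.

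Sample types were compared in 1 edgeR fit of the 12 libraries, 6 against 6, over 13578 nuclear protein-coding genes with a row in both tables. The tables were counted and deposited separately, so sample type and table cannot be told apart. In F4/80+ preparations 7 of the 10 genes were higher than in whole kidney and 0 were lower, against 63.8% of all genes called, 26.5% higher and 37.3% lower. Clu was 3.40-fold higher (log2 1.76 ± 0.22; edgeR quasi-likelihood, Benjamini-Hochberg adjusted p = 1.42e-05) and Lcn2 3.09-fold higher (1.63 ± 0.27, edgeR adjusted p = 0.000133). Krt18 was 2.69-fold higher (1.42 ± 0.25, edgeR adjusted p = 0.000223) and Spp1 2.52-fold higher (1.34 ± 0.21, edgeR adjusted p = 9.19e-05). Cdkn1a (1.01 ± 0.24), Vim (0.91 ± 0.27) and Krt8 (0.61 ± 0.12) rose by less, with edgeR adjusted p values of 0.00202, 0.00976 and 0.000489. Of the 7, Clu and Spp1 had all 6 F4/80+ values above all 6 kidney values, as 15.2% of genes did: Clu ranged from 305 to 353 CPM in kidney and from 406 to 1670.5 CPM in F4/80+ preparations. The median of all genes was -0.13 on this scale and -0.01 with TMM scaling, and the same 7 genes were called under both scalings.

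Havcr1, Vcam1 and Timp1 did not pass in this comparison. Havcr1 was at 0.53 ± 0.42 (edgeR adjusted p = 0.281) and Timp1 at -0.37 ± 0.67 (edgeR adjusted p = 0.645), both on few counts. Vcam1 was at -0.59 ± 0.36 (edgeR adjusted p = 0.170), and its call depended on single libraries. It was called lower at -1.04 (edgeR adjusted p = 0.0146) without Arg/Arg F4/80+ replicate 1 and at -1.01 (edgeR adjusted p = 0.0122) without Trp/Trp F4/80+ replicate 2. Without Trp/Trp kidney replicate 1, the kidney library that stood apart, the 7 calls held and Vim went from 0.91 to 1.18.

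**Figure D5:**
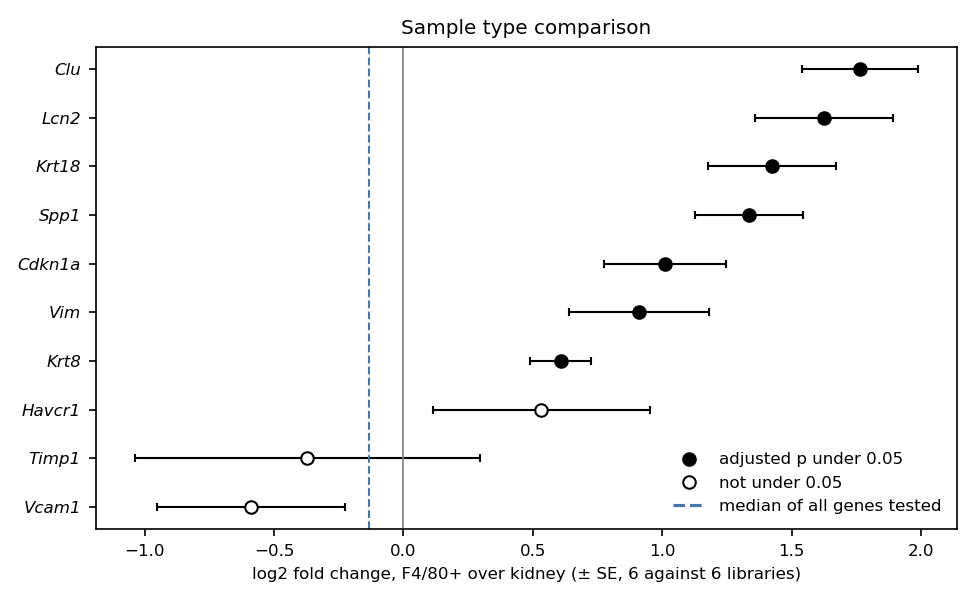
Log2 fold change of the 10 genes between sample types, F4/80+ preparations over whole kidney (6 against 6 libraries, bars of ± SE), with filled points for an edgeR adjusted p under 0.05 and a dashed line at the median of all genes tested, -0.13. The 7 filled points run from 0.61 (Krt8) to 1.76 (Clu).

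The marker lists moved in this comparison as follows. Of 20 distal tubule and collecting duct markers, 15 were higher in F4/80+ preparations and 2 lower, with a median of 1.11, led by the proton pump subunit Atp6v1g3 at 2.30 ± 0.21. Proximal tubule markers were mixed, with 3 of 20 higher and 8 lower (median -0.11). Fibroblast, pericyte and smooth muscle markers had 3 of 13 higher and 8 lower (median -2.44), endothelial markers 0 of 13 higher and 11 lower (median -1.12), and macrophage markers 2 of 12 higher and 7 lower (median -1.06). Markers of mesenchyme and of endothelium, where Vim and Vcam1 are typical genes, were thus mostly lower. The part of these lists in the levels of the 10 genes was not tested.

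Related genes went in both directions between sample types. Of 46 other injury genes, 15 were higher in F4/80+ preparations and 13 lower (median -0.01), and the 3 of smallest p were the stress-response genes Atf3, at 8.05 ± 0.34, and Ccn1, at 3.27 ± 0.15, and the chemokine Cxcl1, at 5.18 ± 0.25. Among p53 targets and cell cycle partners 7 of 23 were higher and 9 lower, led by the antiproliferative gene Btg2 at 4.06 ± 0.23, with Gdf15 at 2.82 ± 0.22. Acute phase and signalling genes had 9 of 23 higher and 9 lower, led by Socs3, a feedback inhibitor of STAT3, at 5.79 ± 0.24, and Nfkbiz, an NF-kappaB cofactor, at 4.13 ± 0.17. Intermediate filament and desmosome genes had 6 of 15 higher and 6 lower, and here Krt19 fell by 3.36 ± 0.52 while its fellow keratins Krt8 and Krt18 rose. Binding partners had 5 of 22 higher and 10 lower, led by Timp2, which is a relative of Timp1, at -2.21 ± 0.21.

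Whether the genotype difference itself differed between sample types was tested as an interaction in the same fit. None of the 10 genes passed, and 0 of 13578 genes did (0%); 864 genes (6.36%) had an unadjusted p under 0.05, and DESeq2 called 7 (0.0516%), none of the 10 among them. Cdkn1a, lower in Trp/Trp kidneys and higher in Trp/Trp F4/80+ preparations by its values, had the smallest p of the 10 and the only one under 0.05 unadjusted, with a difference of 1.44 ± 0.47 (edgeR adjusted p = 0.769). Spp1 at 0.79 ± 0.41, Clu at 0.76 ± 0.43 and Lcn2 at 0.76 ± 0.53 followed. The median of the 10 was 0.49, on a scale where the median of all genes was 0.14, and 0.40 with TMM scaling, where that of all genes was 0.01. Without Arg/Arg F4/80+ replicate 1 the test called 846 of 13701 genes (6.17%), and 3 of the 10 were among them. These were Cdkn1a at 1.88 (edgeR adjusted p = 0.0260), Spp1 at 1.37 (edgeR adjusted p = 0.0105) and Clu at 1.35 (edgeR adjusted p = 0.0169). That library was singled out by its values. It held the highest Arg/Arg F4/80+ value of all 3 genes, so their differences grow when it is left out. Each other fit without 1 library called 0 genes.

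Across the 6 kidneys the 10 genes varied together mainly through Trp/Trp replicate 1. Of the 45 pairs, 23 had a Pearson r above 0.8 over the 6 kidneys (median 0.80), 4 over the 5 kidneys without that library (median 0.04) and 20 over the 6 F4/80+ preparations (median 0.75), on log2(CPM + 0.5). The share over pairs of all genes was not computed, so these counts are not shown to be particular to the 10 genes. In kidney the closest pair was Lcn2 and Clu, at 0.99, and it was at 0.96 without the library and at 0.81 in F4/80+ preparations. Krt18 and Vim were at 0.96 over the 6 kidneys, at 0.83 without the library and at 0.89 in F4/80+ preparations. All genes of a library share its depth and its cell mixture, and both differ between libraries, so these values describe the libraries and carry no test.

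For each of the 10, the gene whose levels were most alike was sought among 10217 others, by the smaller of the Pearson r over 6 kidneys and over 6 F4/80+ preparations. Vim was most like Sparcl1 (0.99 in kidney and 0.98 in F4/80+ preparations), Krt18 most like Anxa3 (0.99 and 0.98), Spp1 most like Esrp1 (0.98 and 0.97) and Clu most like Efhd2 (0.97 and 0.96). Timp1 was closest to Nde1 (0.97 and 0.96), Krt8 to Psmb10 (0.97 and 0.95), Vcam1 to Tcf4 (0.94 and 0.96) and Havcr1 to Rarres2 (0.96 and 0.93). The lowest values were those of Lcn2 with Nfkb1 (0.93 and 0.93) and of Cdkn1a with Med20 (0.93 and 0.90). Each pair is the best of 10217 on 6 libraries per sample type and carries no test. By ranks (Spearman) the values ran from 0.54 (Vim) to 1.0 (Krt8) in kidney. In F4/80+ preparations they ran from 0.60 (Clu) to 1.0 (Vcam1). The F4/80+ value of Timp1 rests on 0 to 7 counts per library. Of the genes so named, Sparcl1, Anxa3, Tcf4, Rarres2 and Nfkb1 were examined by library, and all 5 were highest in Trp/Trp replicate 1 among the kidneys. They were chosen for being like genes that are highest in that library, so this outcome was largely fixed by the choice. Of all genes compared, 35.1% were highest there. Sparcl1 stood at 98.9 CPM there and at no more than 53.7 CPM in the other 5.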

How the data were processed

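RNA sequencing counts from 12 libraries in 4 groups of 3 were used, with genotype, sample type and replicate taken from the labels. STAR, DRAGEN and DESeq2 are listed, with the build mm10 but with no version or role, in the submitters' processing notes. The annotation release is not given in the sources used here. Each deposited table held the authors' raw counts per gene and library, 15361 genes for kidney and 18145 for F4/80+ cells. Beside the counts, the authors deposited a log2 fold change, the linear ratio (fold) made from it, p-values and adjusted p-values, a score (the standard error and the Wald statistic) and a signal column (the mean of scaled counts), in the columns DESeq2 writes per the file headers. The deposited log2 values were turned to Trp/Trp over Arg/Arg where the sign against the counts showed the opposite. Column names matched the short names in the labels' titles.

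CPM was computed over nuclear protein-coding genes of the library's own table. Genotypes were compared within each table with R 4.3.3, edgeR 4.0.16 and limma 3.58.1: filterByExpr with its defaults (a count of 10 in 3 libraries and a total of 15), TMM scaling, the quasi-likelihood test and Benjamini-Hochberg adjustment over all genes tested, with a threshold of 0.05. Sample type and its interaction with genotype were fitted over 12 libraries and the genes held by both tables (13733 before the filter), with the nuclear protein-coding count as library size. The SE of a log2 fold change was derived from the F statistic of the test and so restates it. The common biological coefficient of variation was 0.101 in kidney, 0.280 in F4/80+ cells and 0.198 over 12 libraries. The procedure was tested on simulated data. Alternatives were other scalings, DESeq2 1.42.0, no filter, nuclear protein-coding genes alone, a replicate block and leaving out each library.

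The 10 genes, the gene lists and the tests were chosen with earlier results of these data known. All 10 genes are named in each comparison, with up to 3 genes of smallest p from a list and, for each of the 10, the most alike gene with a mean of at least 5 CPM in both sample types (log2 of CPM + 0.5). Libraries and genes that were singled out by their values are named as such. Python 3.11.15 and matplotlib 3.10.9 made the plots. Promoters are from RefSeq, GRCm38.p6. The p-values measure the spread between these labelled replicates.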

Additional observations from a re-analysis of the deposited data

Results flagged for a closer look

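In each sample type the highest or lowest of the 6 libraries was set against the others for each of the 10 genes, 20 groups of 6 in all. A library counted as far from the others when its gap to the nearest one exceeded Dixon's critical share of the whole range. For normally distributed values, chance gives such a gap in about 1 in 20 groups. In kidney, Trp/Trp replicate 1 stood that far above the other 5 libraries for 7 of the 10 genes. Havcr1 was at 3.30 CPM there and at 1.56 CPM in the next kidney, Lcn2 at 6.27 and 3.56 CPM, and Clu at 353 and 323 CPM. Vcam1 was at 22.0 and 15.6 CPM, Krt18 at 65.2 and 38.1 CPM, Timp1 at 1.59 and 0.506 CPM and Vim at 115 and 49.7 CPM. The groups share that library, so the 7 are not independent of each other. The rule was run on the 10 genes only, so no share over all genes stands beside the 7. Trp/Trp replicate 1 was the highest kidney for 35.1% of the 14451 nuclear protein-coding genes compared. The 7 are thus not shown to be particular to these genes. In F4/80+ preparations 1 group had such a library: Vcam1 stood at 29.7 CPM in Trp/Trp replicate 2 and at 12.4 CPM in the next preparation.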

How the results depend on the processing

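Between genotypes, 0 genes passed in either sample type under every edgeR setting run, and DESeq2 called 15 genes in kidney, 4 in F4/80+ cells and 7 for the interaction, none of them among the 10. The direction of small values depended on single libraries. In kidney, Spp1 ranged from -0.10 to 0.074 over the fits without 1 library and Krt18 from -0.033 (without Trp/Trp replicate 1) to 0.50. In F4/80+ cells, Havcr1 ranged from -0.98 to 0.40 and Krt8 from -0.081 to 0.19. For the interaction, Krt8 was at -0.0021 with TMM scaling and at -0.0027 with DESeq2, and ranged from -0.064 to 0.27 without 1 library, Krt18 ranged from -0.046 to 0.83, Vim from -0.057 to 0.77 and Timp1 from -0.87 to 1.97. Without 1 library the interaction called 0 to 846 genes and 0 to 3 of the 10, the highest counts without Arg/Arg F4/80+ replicate 1; the cause was not tested. Vcam1 between sample types was called without Arg/Arg F4/80+ replicate 1 (-1.04) and without Trp/Trp F4/80+ replicate 2 (-1.01); 7 to 8 of the 10 were called over those fits. Timp1 could not be fitted across sample types without Trp/Trp kidney replicate 1. Same-numbered libraries did not deviate together (r from -0.08 to -0.01 in kidney, and -0.31, -0.49 and 0.18 in F4/80+ cells), so the numbers were not taken to pair the samples. With the replicate block 0 genes passed in kidney, in F4/80+ cells and for the interaction, 8342 between sample types, and the interaction of Timp1 was 0.11. Depth limits Timp1 and Havcr1, with as few as 0 and 4 counts in F4/80+ libraries, and mitochondrial RNA lowered the usable depth there.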
